A study of Mus musculus with 9 samples.

Results

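The genes described here are 10 transcription factor genes of the forebrain and eye field, out of 54532 genes in the count table. They were the SOXB1 genes Sox1, Sox2 and Sox3, the eye-field genes Rax, Six3, Six6 and Lhx2, and the forebrain genes Emx2, Otx2 and Otp. The 10 members were chosen by name with the counts of these libraries already known, so their differences between stages are given as a description, with a standard error and without a p-value.

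Lambdoidal junctions were dissected from C57BL/6J mouse embryos of 3 ages, with 3 libraries each for E10.5, E11.5 and E12.5. The lambdoidal junction is where the maxillary prominence meets both nasal prominences of the face and fuses with them into the upper lip and primary palate. The labels name no treatment or mutation, and each library pooled tissue of several embryos, so no value belongs to a single embryo and p-values measure the spread between pools. RNA of the dissected tissue was sequenced in bulk, and these stages were compared to follow gene expression while the lip fuses.

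SOXB1 proteins bind DNA through an HMG box and keep neural and placodal progenitors from differentiating. Rax, Six3, Six6, Lhx2 and Otx2 form the network of homeobox genes that sets aside the eye field in the anterior neural plate and later patterns the optic vesicle, while Emx2 acts in the dorsal telencephalon and Otp in the hypothalamus. Several of them are not restricted to the brain, since Sox2, Six3, Otx2, Lhx2 and Emx2 are also known from the nasal placode and olfactory epithelium, which lie close to the dissected region.

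The genes lie on different chromosomes of GRCm38 (mm10), and all are protein coding. Sox1 (ENSMUSG00000096014) was at chr8:12395295-12400126 on the plus strand, Sox2 (ENSMUSG00000074637) at chr3:34650405-34652461 on the plus strand, and Sox3 (ENSMUSG00000045179) at chrX:60891366-60893430 on the minus strand. Six3 (ENSMUSG00000038805) was at chr17:85613608-85629302, Six6 (ENSMUSG00000021099) at chr12:72939892-72944899 and Lhx2 (ENSMUSG00000000247) at chr2:38339281-38369733, each on the plus strand. Emx2 (ENSMUSG00000043969) was at chr19:59458372-59465357 and Otp (ENSMUSG00000021685) at chr13:94875602-94885130 on the plus strand, and Otx2 (ENSMUSG00000021848) at chr14:48657677-48673819 on the minus strand. Rax (ENSMUSG00000024518) is named here without an interval, because the interval in the table differed from that of GENCODE vM21. The interval was the same for the other members.

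Library totals ranged from 16581009 to 20836804 counts. Facial mesenchyme genes were abundant at every stage. The 12 genes of that list (Prrx1, Alx1, Msx1, Pdgfra and others) were all above 0 at each stage, with summed levels of 1308 to 2110 CPM (counts scaled to library size) at E10.5, 2924 to 3097 CPM at E11.5 and 2907 to 3191 CPM at E12.5. E10.5 replicate 3 stood apart from the other libraries. The SD of its log2 difference from the other 2 libraries of its stage was 0.627 over 14512 genes, against 0.236 to 0.441 for the other libraries, and it held the lowest facial mesenchyme sum (1308 CPM). Across the same genes its difference also fell with GC content (Spearman's rho −0.604, as a description across genes), while those of E10.5 replicates 1 and 2 rose with it (0.501 and 0.531) and the others lay between −0.295 and 0.310. The differences of E10.5 replicates 1 and 2 were each taken against a mean that includes replicate 3, so their opposite sign is partly built in. The part of E10.5 replicate 3 in the differences from E10.5 is shown by giving each gene's fitted log2 fold change against E10.5 with and without it.

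The promoters of 8 of the 10 genes were read from RefSeq (GRCm38.p6) as windows from 250 bases before to 50 bases after each start, because most of these genes moved together across the stages. The promoter set used here held no entry for Sox3 or Rax. The 12 windows differed widely in base composition. Their GC content ran from 41.67% at the first Otx2 start to 74.67% at the first Lhx2 start, against a median of 52.67% over 32851 promoters. Sox1, the gene with a deep loss, and Emx2, the gene that rose, both had CpG-rich windows, which are shown with every CpG in capitals.
Sox1 promoter, chr8:12395269-12395568, plus strand: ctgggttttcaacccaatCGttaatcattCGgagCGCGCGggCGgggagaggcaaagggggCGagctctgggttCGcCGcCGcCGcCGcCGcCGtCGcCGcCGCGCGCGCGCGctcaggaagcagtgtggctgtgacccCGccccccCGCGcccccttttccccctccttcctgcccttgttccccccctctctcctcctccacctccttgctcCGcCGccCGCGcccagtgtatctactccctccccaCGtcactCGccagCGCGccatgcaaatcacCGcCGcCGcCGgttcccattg
Emx2 promoter, chr19:59458440-59458739, plus strand: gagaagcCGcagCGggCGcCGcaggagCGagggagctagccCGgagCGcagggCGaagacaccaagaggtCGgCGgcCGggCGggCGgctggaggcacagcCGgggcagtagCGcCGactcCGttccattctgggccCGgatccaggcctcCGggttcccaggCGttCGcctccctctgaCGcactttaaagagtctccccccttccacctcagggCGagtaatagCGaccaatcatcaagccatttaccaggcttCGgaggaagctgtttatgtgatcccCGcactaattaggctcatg
The Sox1 window held 37 CpGs, with an observed over expected ratio of 1.07, and the Emx2 window held 26, with a ratio of 0.838. The median ratio of all promoters was 0.384, so genes of opposite course shared this feature.

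Otx2 has several starts in RefSeq, and the window below is shown because it was the member window with the most matches to the core letters searched. The letters were ACAAT (SOX core), TAATTA (homeodomain core) and TGATA (core for Six3-type factors), on both strands, and matches are in capitals.
Otx2 promoter, chr14:48665060-48665359, minus strand: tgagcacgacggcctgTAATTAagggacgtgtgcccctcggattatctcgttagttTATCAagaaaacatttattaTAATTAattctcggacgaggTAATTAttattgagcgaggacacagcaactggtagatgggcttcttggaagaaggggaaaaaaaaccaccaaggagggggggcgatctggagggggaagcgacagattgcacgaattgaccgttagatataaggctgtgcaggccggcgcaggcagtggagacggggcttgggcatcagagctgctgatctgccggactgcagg
It held 3 matches to TAATTA and 1 to TGATA, read here as its reverse complement, and none of these overlapped. Among all promoters of this length, 5.291% held TAATTA, 24.687% held TGATA and 31.025% held ACAAT. The Emx2 window held 1 TAATTA near its end, the Sox2 window 1 TGATA, and the Sox1, Six3, Six6, Lhx2 and Otp windows none of the 3 motifs. Of the other Otx2 windows, that at chr14:48667595-48667894 held 1 ACAAT and 1 TAATTA, and that at chr14:48662685-48662984 held 1 ACAAT. The Otx2 window at chr14:48667459-48667758 held none of the 3 motifs. A match of this kind is a description of the letters only.

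At E10.5 the lambdoidal junction libraries held transcripts of all 10 genes, and by E11.5 most of them were lower. A gene was called lower or higher when the adjusted p-value of edgeR's quasi-likelihood test was at most 0.05 and the absolute log2 fold change at least 1. The contrasts were E11.5 vs. E10.5 (the first interval), E12.5 against E11.5 (the second interval), and the whole span from E10.5 to E12.5, each given as the later minus the earlier stage. In the first interval, 8 of the 10 members were called lower and 0 higher, where 2.61% of all genes tested were called lower and 3.46% higher. The members were chosen with this contrast in view, so nothing is read from that count. In bulk tissue, fewer cells of a type and less RNA per cell cannot be told apart, and this holds for every difference below. The plot of CPM by stage shows the 3 courses that follow, a near loss, a partial fall and a rise, which were grouped after the values were seen.

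**Figure D1:**
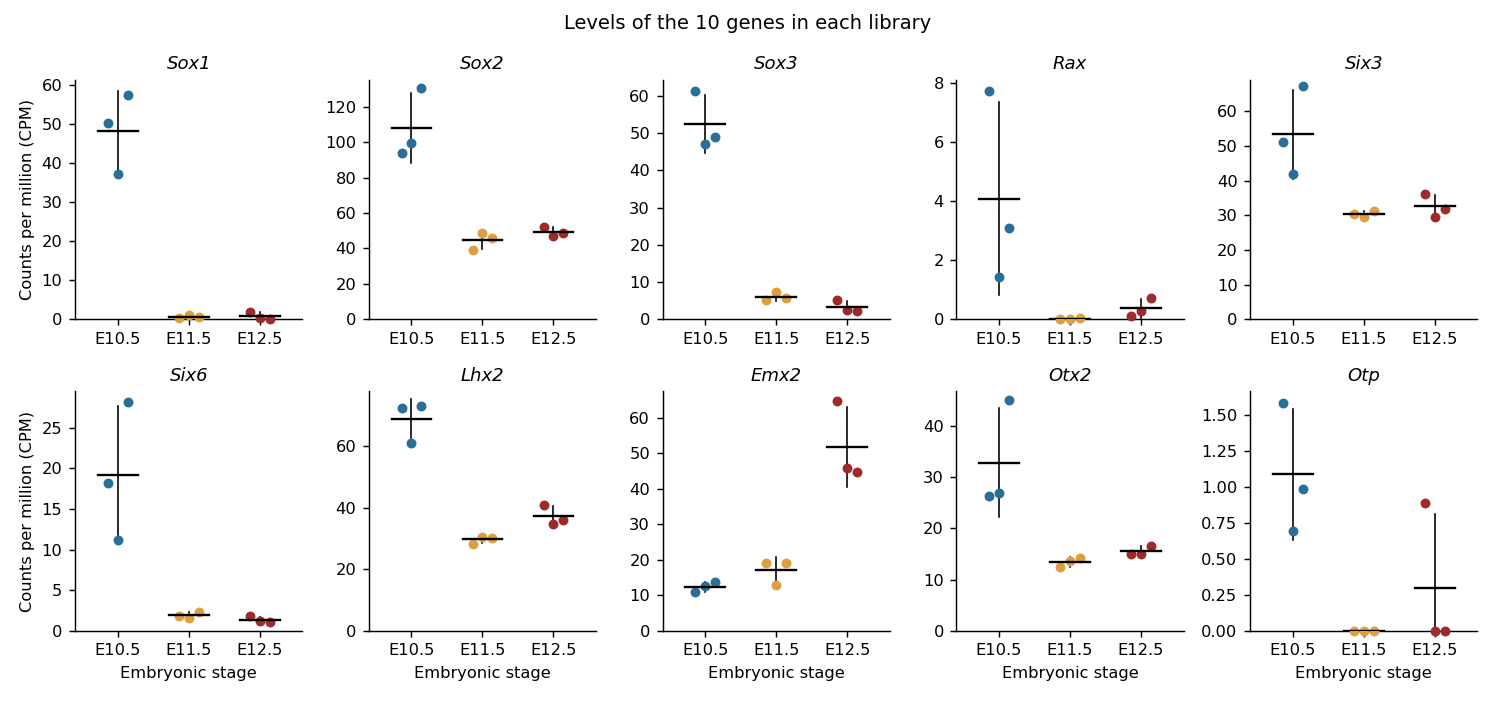
Level of each of the 10 genes in CPM (y axes, linear from 0, a scale of its own per gene) by embryonic stage (x axes). Points are the 3 libraries of a stage, horizontal bars the mean and vertical lines ± 1 SD, cut at 0. In 8 genes every E10.5 library sits above every later library, in Otp a single E12.5 library reaches into the E10.5 range, and the 3 E12.5 libraries of Emx2 sit above all others.

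Among the SOXB1 genes, Sox1 was nearly lost. Sox1, which marks the neural plate and neural tube from their beginning, had 857, 649 and 932 counts in the 3 E10.5 libraries, 4, 24 and 10 counts at E11.5, and 34, 6 and 1 counts at E12.5. Every E10.5 library lay far above every later library, and within the later stages E11.5 replicate 2 and E12.5 replicate 1 held most of the remaining counts. The mean level was 48.3 ± 10.2 CPM at E10.5, 0.637 ± 0.483 CPM at E11.5 and 0.758 ± 0.989 CPM at E12.5 (SD, n = 3), and the later means were 1.32% and 1.57% of the first. The log2 fold change was −6.22 (SE 0.41) in the first interval and −5.96 (SE 0.62) over the whole span. The former was −7.00 without E11.5 replicate 2, and the latter −7.89 without E12.5 replicate 1. Leaving out E10.5 replicate 3, the highest library, gave −6.07 and −5.82.

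Sox3, the X-linked SOXB1 gene of neural progenitors and of the pituitary primordium, followed Sox1 with a larger remainder. Its libraries held 1047, 817 and 793 counts at E10.5, 93, 149 and 105 counts at E11.5, and 93, 44 and 38 counts at E12.5. No E10.5 library overlapped a later library. The mean fell from 52.4 ± 7.80 CPM to 5.94 ± 1.15 CPM and then 3.28 ± 1.64 CPM, which were 11.3% and 6.25% of the E10.5 mean. The log2 fold change was −3.16 (SE 0.19) in the first interval, −3.99 (SE 0.32) over the whole span and −0.85 (SE 0.31) in the second interval. In the last contrast the libraries overlapped, and without E12.5 replicate 1, which held the most Sox3 at E12.5, the value was −1.35 and Sox3 was called lower. The first 2 values were −3.20 and −4.04 without E10.5 replicate 3.

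Sox2 kept a large part of its level. This SOXB1 gene, which is used by neural progenitors and also by placodes and oral epithelium, was the most abundant of the 10 per kilobase of gene length at each stage. Its levels were 94.1, 99.6 and 131 CPM in the E10.5 libraries, 38.9, 48.9 and 46.1 CPM at E11.5, and 52.1, 46.7 and 48.8 CPM at E12.5. The E10.5 libraries lay above all others, and the E11.5 and E12.5 libraries overlapped. The means of the later stages were 41.2% and 45.5% of the E10.5 mean, with log2 fold changes of −1.30 (SE 0.15) in the first interval, −1.14 (SE 0.18) over the whole span and 0.15 (SE 0.13) in the second interval. Without E10.5 replicate 3, the highest library, the whole span value was −0.98 and Sox2 was no longer called lower, while the first interval value was −1.14 and stayed past both limits.

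The eye-field genes divided in the same manner, with Rax and Six6 low after E10.5 and Six3 and Lhx2 falling only in part. Rax, the homeobox gene needed for any optic vesicle to form, had 132, 25 and 50 counts at E10.5, 0, 0 and 1 counts at E11.5, and 2, 5 and 12 counts at E12.5. The 3 E12.5 libraries all exceeded the 3 E11.5 libraries, and all 6 lay below E10.5. Over summed counts scaled to library size, the E10.5 level was 237 times that of E11.5 (207 against 1 counts; 95% exact interval 42.0 to 9399, covering counting error only). The E12.5 level was 20.7 times that of E11.5 (19 against 1 counts; interval 3.30 to 862), although the counts of Rax were too low for the fit of that contrast. Over the whole span the log2 fold change was −3.48 (SE 0.71). Rax was also the member with the widest spread at E10.5, where the highest library exceeded the lowest 5.38 times, and the whole span value was −2.63 without E10.5 replicate 1 and −3.65 when replicate 3 of that stage was left out. It was −4.37 without E12.5 replicate 3, which held 12 of the 19 counts of its stage.

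Six6, a sine oculis family homeobox gene of the retina, hypothalamus and pituitary, had 310, 194 and 456 counts at E10.5, 34, 32 and 44 counts at E11.5, and 32, 22 and 17 counts at E12.5. No later library reached the lowest E10.5 library. Its mean fell from 19.1 ± 8.51 CPM to 1.91 ± 0.396 CPM and 1.33 ± 0.397 CPM, or 9.97% and 6.95% of the E10.5 mean. The log2 fold changes were −3.34 (SE 0.37), −3.84 (SE 0.39) and −0.51 (SE 0.33) in the first interval, the whole span and the second interval. The first 2 were −2.96 and −3.45 without E10.5 replicate 3, the library with the most Six6.

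Six3, the close relative of Six6 that acts in the anterior forebrain, lens and olfactory placode, was called in no contrast. Its levels were 51.1, 41.8 and 67.2 CPM at E10.5, 30.5, 29.6 and 31.2 CPM at E11.5, and 36.2, 29.5 and 31.9 CPM at E12.5. The E10.5 libraries were above all later libraries, but the E11.5 and E12.5 libraries overlapped. The log2 fold change was −0.83 (SE 0.17) in the first interval and −0.72 (SE 0.21) over the whole span, short of the limit of 1 in both, and 0.10 (SE 0.13) in the second interval. With E10.5 replicate 3 left out, the library with the most Six3, the first 2 values were −0.63 and −0.52. The mean at E12.5 was 61.0% of that at E10.5. At E11.5 the means of Six3 and Six6 were 57.0% and 9.97% of those at E10.5.

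Lhx2, a LIM homeobox gene of the optic vesicle, cortex and olfactory neurons, had 72.4, 61.2 and 73.0 CPM at E10.5, 28.4, 30.7 and 30.3 CPM at E11.5, and 41.0, 34.8 and 35.9 CPM at E12.5. It was lowest at E11.5, with the 3 stages apart from each other. The log2 fold change was −1.23 (SE 0.11) in the first interval, −0.89 (SE 0.17) over the whole span and 0.33 (SE 0.13) in the second interval, so Lhx2 was called lower only in the first of the 3 contrasts. Removing the trend of each library's log2 CPM with GC content before the fit brought the whole span value to −1.04, past the limit. Leaving out E10.5 replicate 3 gave −1.19 in the first interval and −0.85 over the whole span. Lhx2 had the tightest E10.5 libraries of the 10 genes, with a highest over lowest ratio of 1.19.

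Of the forebrain genes, Emx2 was the only one of the 10 members called higher in any contrast. Emx2, the homeobox gene of the dorsal telencephalon and urogenital ridge, had 10.8, 12.7 and 13.7 CPM at E10.5, 19.2, 12.9 and 19.2 CPM at E11.5, and 64.7, 45.7 and 44.8 CPM at E12.5. The E12.5 libraries were all far above the earlier libraries, whereas those of E10.5 and E11.5 overlapped. The E12.5 mean was 417% of that at E10.5. Its log2 fold change was 0.44 (SE 0.19) in the first interval, 2.06 (SE 0.22) over the whole span and 1.61 (SE 0.20) in the second interval. Without E12.5 replicate 1, the highest library, the last 2 values were 1.85 and 1.41. The first 2 were 0.52 and 2.14 without E10.5 replicate 3.

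Otx2, which specifies the anterior head and later the retinal pigment epithelium and choroid plexus, resembled Sox2. Its levels were 26.4, 27.0 and 45.2 CPM at E10.5, 12.5, 13.7 and 14.2 CPM at E11.5, and 15.0, 15.0 and 16.7 CPM at E12.5. E10.5 replicate 3 was the highest, and the stages did not overlap. The log2 fold change was −1.31 (SE 0.22) in the first interval, −1.08 (SE 0.24) over the whole span and 0.21 (SE 0.14) in the second interval. Otx2 was no longer called in the first interval without E11.5 replicate 1 (−1.25) or E11.5 replicate 3 (−1.34), nor over the whole span without E10.5 replicate 3 (−0.78). The first interval value without that library was −1.01.

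Otp, needed for neurosecretory neurons of the hypothalamus, was the rarest member. It had 27, 12 and 16 counts at E10.5, 0 in each E11.5 library, and 16, 0 and 0 counts at E12.5. Every count at E12.5 came from replicate 1, the library that also held 34 of the 41 E12.5 counts of Sox1. Against a floor of 3 counts over the E11.5 group, Otp was at least 21.0-fold higher at E10.5, and for E12.5 the bound was 5.82-fold. Over the whole span the libraries overlapped and Otp was not called lower (log2 fold change −1.83, SE 0.95), but without E12.5 replicate 1 the value was −7.24 and it was called lower. It was −1.89 without E10.5 replicate 3.

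Over the whole span, 6 members were called lower and 1 higher, and 5.08% and 9.97% of all genes tested were called in these directions. Without E10.5 replicate 3, 4 members were called lower. In the second interval only 7 members had counts high enough to be tested, of which 0 were called lower and 1 (Emx2) higher, beside 0.962% and 4.14% of all genes. The members' median log2 fold change was −2.23 in the first interval, also with Otp set at its bound, −1.48 over the whole span and 0.15 in the second interval. Over all genes tested the medians were −0.03, −0.01 and 0.02. Each pair of contrasts shares the libraries of a stage, so they are not independent of each other. DESeq2 also called 0 members higher in the first interval and 0 lower in the second interval. Among the 7 members tested in the second interval, Sox3 had the lowest log2 fold change (−0.85, SE 0.31).

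**Figure D2:**
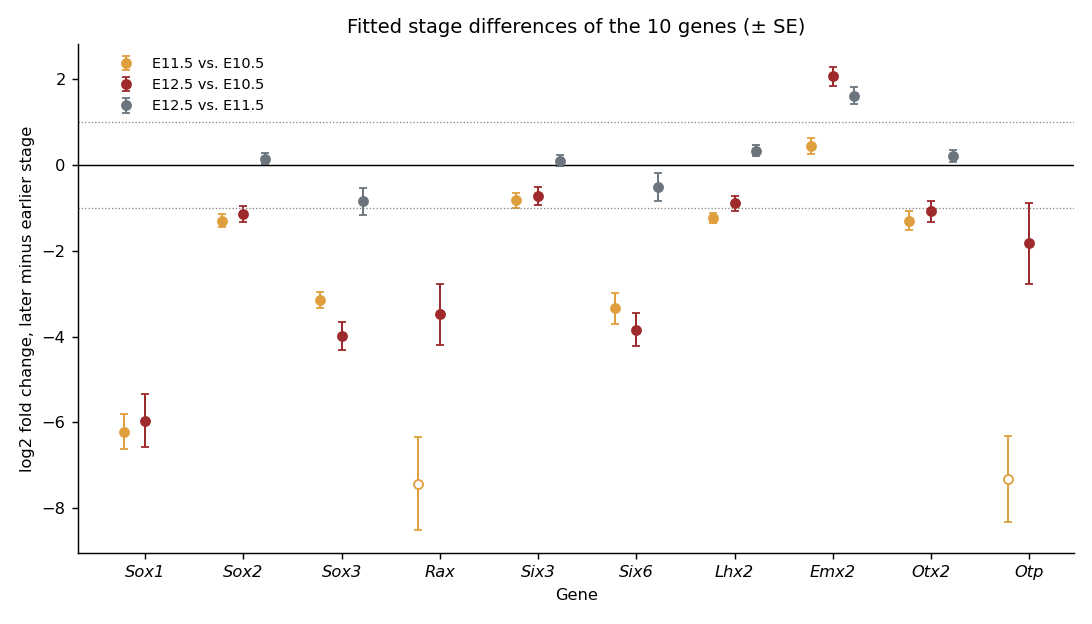
Log2 fold change (y axis, later minus earlier stage) of each gene (x axis) in the 3 contrasts, with bars of ± 1 SE and dotted lines at −1 and 1. Open circles mark values against a stage with 0 or 1 counts in all (Rax and Otp in the first interval), which depend on the fit's prior count. Sox1 shows −6.22 and −5.96 against E10.5, where Sox2, Six3, Lhx2 and Otx2 lie between −1.31 and −0.72, and these 4 lie between 0.10 and 0.33 in the second interval. Emx2 reaches 2.06 over the whole span.

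Relative to E10.5, the means of Sox1, Sox3, Rax, Six6 and Otp at E11.5 ranged from 0% to 11.3%, and those of Sox2, Six3, Lhx2 and Otx2 from 41.0% to 57.0%. At E12.5 the ranges were 1.57% to 27.3%, highest in Otp, and 45.5% to 61.0%. The ranges of both sets did not overlap at either later stage, although they were formed from these values and are only a description. The plot of shares shows both bands and the single rising line.

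**Figure D3:**
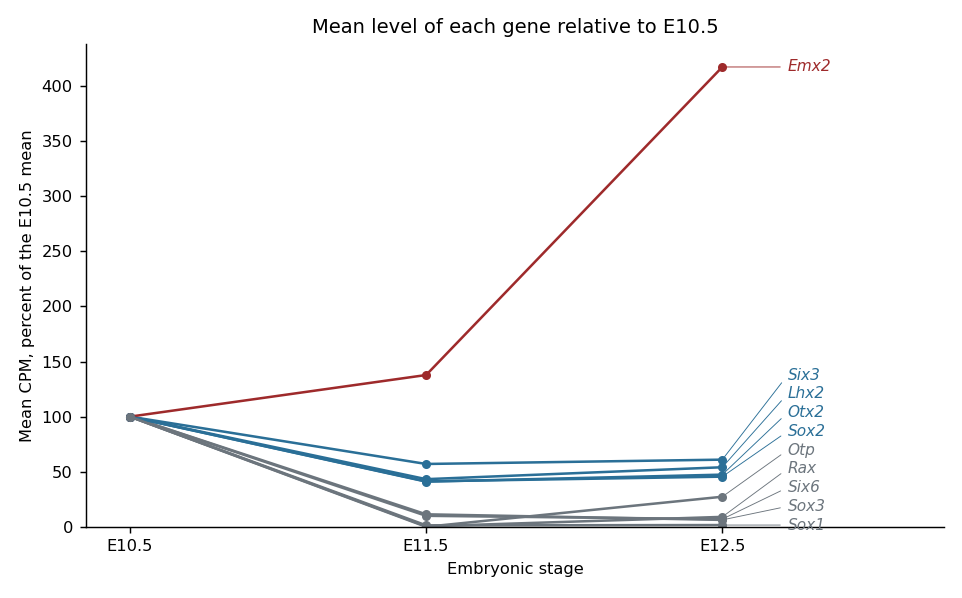
Mean CPM of each gene as a percent of its E10.5 mean (y axis, linear) by stage (x axis), with 1 line per gene. Grey lines are the genes that fell to 11.3% or less at E11.5, blue lines those that kept 41.0% to 57.0%, and the red line is Emx2, which reached 417% at E12.5.

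Levels were compared between genes as CPM per kilobase of gene length. At E10.5 the order was Sox2 (52.6), Sox3 (25.4), Lhx2 (15.7), Sox1 (10.002), Six3 (9.80), Otx2 (7.78), Six6 (4.77), Emx2 (4.13), Rax (2.45) and Otp (0.377). The libraries of Sox2, Sox3 and Lhx2 each lay above those of the next gene, while from Sox1 to Rax each gene overlapped its neighbour. At E12.5 the order was Sox2 (23.9), Emx2 (17.2), Lhx2 (8.48), Six3 (5.97), Otx2 (3.68), Sox3 (1.59), Six6 (0.332), Rax (0.22), Sox1 (0.157) and Otp (0.103). The first 6 genes of that order were each apart from the next, and the last 4 overlapped. Sox3 thus moved from the second place to below Otx2, and Emx2 from below Six6 to the second place. At E11.5, Sox2 led with 21.7 and was followed by Lhx2 (6.78), Emx2 (5.69) and Six3 (5.59).

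Across the 9 libraries, the member most like each gene was read from Pearson's r of log2 CPM, as a description in which all points share their stages. Sox1 and Sox3 were closest to each other (r = 0.972), as were Sox2 and Otx2 (r = 0.978). Six6 was nearest to Sox3 (r = 0.967), Six3 to Otx2 (r = 0.956), Lhx2 to Sox2 (r = 0.965), Rax to Lhx2 (r = 0.929) and Otp to Lhx2 (r = 0.90). Emx2 had no positive r with any member, from −0.763 with Sox3 to −0.261 with Otp. Among 13138 other protein-coding genes, those most like the members' mean profile were Cp, the ceruloplasmin gene (r = 0.994), Tox2 (0.985), Prkcb (0.982), Rfx4 (0.979), Acsbg1 (0.979), Nkx6-2 (0.976), Ckb (0.975), Ngef (0.969), Hap1 (0.969) and Arl4c (0.969). Cp went from 12.1 ± 6.84 CPM at E10.5 to 0.308 ± 0.0697 CPM at E11.5 and 0.618 ± 0.331 CPM at E12.5, and Rfx4, a factor of the neural tube, from 2.94 ± 1.05 CPM to 0.050 ± 0.0486 CPM and 0.0957 ± 0.0860 CPM.

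Genes that overlap members were read next. They were taken because they overlap members whose course was already known, and they come from the same loci and libraries. Their values are therefore no independent evidence for the members, and their p-values are a description. The adjusted p-values in this and the next paragraphs come from the same edgeR test, adjusted after Benjamini and Hochberg over all genes tested. Sox1ot, which runs on the strand of Sox1 and shares no exon base with it, had 151, 116 and 192 counts at E10.5, 0, 11 and 8 counts at E11.5, and 27, 1 and 2 counts at E12.5. E12.5 replicate 1 held most of its counts at that stage, and E11.5 replicate 1 held none. It was called lower in the first interval (log2 fold change −4.80, SE 0.59, adjusted p = 0.00284) and over the whole span (−3.998, SE 0.71, adjusted p = 0.00233). These values were −4.56 and −3.77 without E10.5 replicate 3, and it stayed called. It was not tested in the second interval.

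Sox2ot encloses Sox2 on the same strand, again with no shared exon base, and it fell too. It had 132, 116 and 196 counts at E10.5, 21, 17 and 18 counts at E11.5, and 22, 14 and 7 counts at E12.5. All E10.5 libraries were above all later ones. The log2 fold change was −3.20 (SE 0.31, adjusted p = 0.00146) in the first interval and −3.44 (SE 0.41, adjusted p = 0.00016) over the whole span, beside −1.30 and −1.14 for Sox2. The difference between the 2 genes was not itself tested. Without E10.5 replicate 3 the Sox2ot values were −2.91 and −3.15, and it stayed called.

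Six3os1 and Emx2os run opposite to their partners and share 106 and 264 exon bases with them (1.95% of the Six3 and 8.79% of the Emx2 exons). Without a stated strand setting, reads in such shared bases cannot be assigned to either gene. Six3os1 was more abundant than Six3 in CPM, with 122 ± 17.5, 61.7 ± 1.296 and 52.6 ± 4.75 CPM at the 3 stages. Its log2 fold change was −0.998 (SE 0.12, adjusted p = 0.00293) in the first interval, just short of the limit, and −1.21 (SE 0.18, adjusted p = 0.000734) over the whole span, where it was called lower (−0.88 and −1.09 without E10.5 replicate 3). Emx2os rose with Emx2, from 3.45 ± 0.844 CPM at E10.5 to 6.91 ± 2.16 CPM at E11.5 and 19.9 ± 0.973 CPM at E12.5. It was called higher over the whole span (2.52, SE 0.24, adjusted p = 4e-05, and 2.47 without E10.5 replicate 3) and in the second interval (1.54, SE 0.22, adjusted p = 0.00132). The gene opposite Six6, 4930447C04Rik, did not follow it, with log2 fold changes of −0.06, 0.36 and 0.40 in the first interval, the whole span and the second interval and no call. The first 2 were −0.08 and 0.34 without E10.5 replicate 3. Raxos1, opposite Rax, had 2 counts in E10.5 replicate 1 and 0 in all other libraries.

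**Figure D4:**
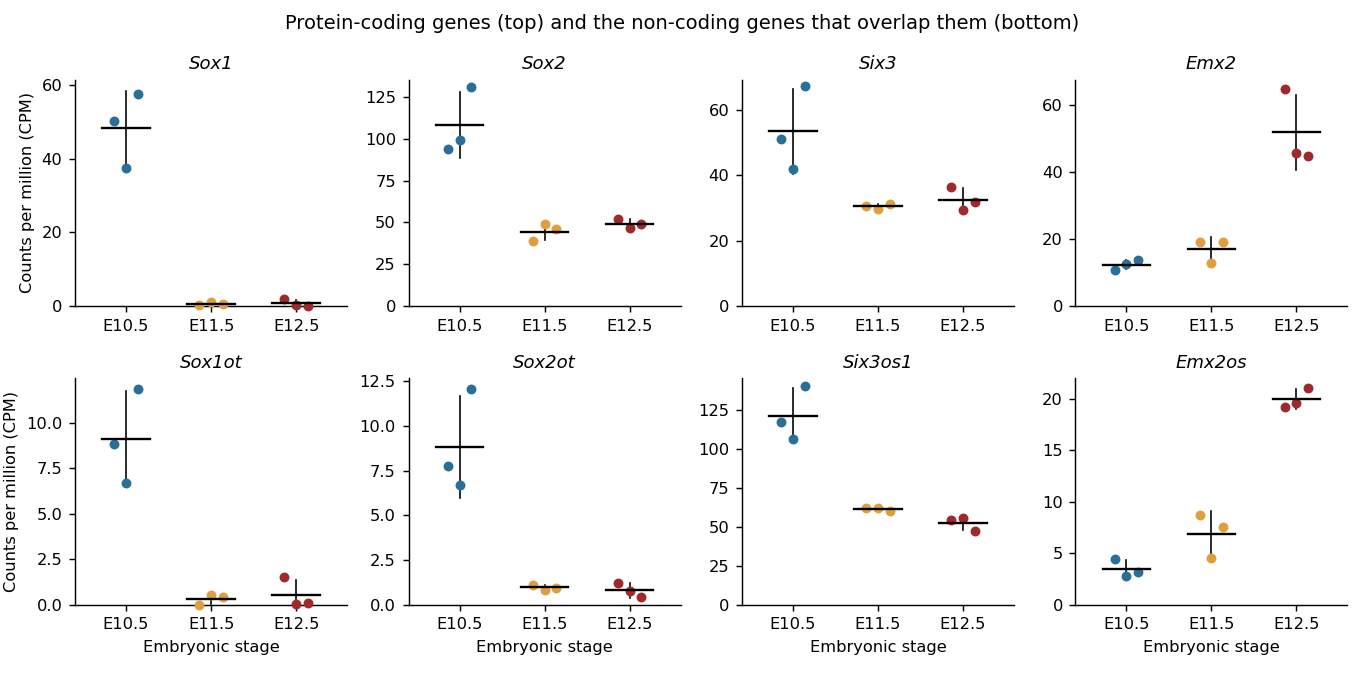
CPM (y axes, linear from 0) by stage (x axes) of Sox1, Sox2, Six3 and Emx2 (top) and of the non-coding gene that overlaps each (bottom). Points are libraries, horizontal bars means and vertical lines ± 1 SD, cut at 0. The means of each pair lie on the same side of their E10.5 means at both later stages, with Sox2ot at 0.971 CPM at E11.5 where Sox2 kept 44.6 CPM. From E11.5 to E12.5, Six3os1 goes from 61.7 to 52.6 CPM and Six3 from 30.4 to 32.5 CPM, and Sox2ot has a log2 fold change of −0.26 and Sox2 of 0.15, so these 2 pairs differ in sign there, with no call for any of the 4 genes.

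Many other regulators of the forebrain fell with the members, but not all. Sim1, given below, was called higher. Fezf1, named after its values were seen, was called in no contrast, with stage means of 14.9, 13.7 and 22.5 CPM in order of age. This and the other companion lists were chosen with earlier results of these data known. At most 4 called genes per list were named by the size of their fold change. Their adjusted p-values are therefore a description too. Of 18 forebrain regulators that are no members, 14 were tested in the first interval, 9 were called lower and 0 higher, with a median log2 fold change of −2.34. Over the whole span, 12 of 15 tested were called lower and 1 higher (median −3.21), and in the second interval, 0 of 7 lower and 1 higher (median −0.37). The list's summed level was 209 to 281 CPM at E10.5, 65.6 to 74.9 CPM at E11.5 and 59.4 to 70.6 CPM at E12.5. Nkx2-4 and Wnt8b were at 0 in every E11.5 library, and Wnt8b, Barhl2 and Gsx2 in every E12.5 library. The E10.5 counts of Nkx2-4 (27, 2 and 6) and Wnt8b (45, 1 and 4) lay mostly in replicate 1. Barhl2 had only 1, 0 and 0 counts at E10.5 and 2, 1 and 2 at E11.5, so its 0 shows no fall from E10.5. Without E11.5 replicate 1, 5 of the list were called lower in the first interval. Where the count was 0, an unadjusted p under 0.05 gave 0 higher in the first interval and 4 lower in the second interval, and DESeq2 called 0.

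Nkx2-1, the factor of the ventral forebrain and hypothalamus, had 528, 755 and 935 counts at E10.5, 0, 49 and 7 counts at E11.5, and 17, 0 and 0 counts at E12.5. It was called lower in the first interval (−5.55, SE 0.76, adjusted p = 0.00439, and −5.29 without E10.5 replicate 3). Its later counts lay mostly in E11.5 replicate 2 and E12.5 replicate 1, the libraries that also held most of the residual Sox1. The part of these libraries in the residual Sox1 was not tested. Gsx2, a factor of the lateral ganglionic eminence, had 108 counts at E10.5 and 1 at E11.5, a ratio of 124 (95% exact interval 21.7 to 4925), and Lhx5 had 153 and 3 counts, a ratio of 58.3 (19.6 to 286). Sim1, a hypothalamic factor that works with Otp and is also used by other tissues, was the gene called higher. It had 5, 1 and 3 counts at E10.5, 1 in all of E11.5, and 17, 26 and 27 at E12.5. The E12.5 level was 76.4 times that of E11.5 (95% exact interval 13.3 to 3061). The fitted value of the second interval (log2 fold change 5.79, SE 0.74, adjusted p = 0.000744) rests on that 1 count at E11.5 and depends on the fit's prior count.

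Regulators of the optic vesicle and retina gave a like picture. Of 12, 9 were tested in the first interval, of which 6 were called lower and 0 higher (median −3.04). For the whole span, 7 of 9 were called lower and 0 higher (median −2.21), and in the second interval, 0 of 6 lower and 1 higher (median −0.23). Pax2, the gene of the optic stalk, had 297, 176 and 200 counts at E10.5, 3, 2 and 12 at E11.5, and 6, 4 and 1 at E12.5 (in the first interval, −5.48, SE 0.50, adjusted p = 0.0013, and −5.54 without E10.5 replicate 3). Vax2, a ventral retina gene, had 94 counts at E10.5 and 2 at E11.5, a ratio of 53.8 (95% exact interval 14.5 to 451), while Hmx1 fell and then rose in part, called lower in the first interval (−4.01, SE 0.53, adjusted p = 0.00385, and −4.29 without E10.5 replicate 3) and higher in the second interval (2.27, SE 0.39, adjusted p = 0.0039). The summed level of the list was 234 to 583 CPM at E10.5, lowest in replicate 3, 461 to 508 CPM at E11.5 and 334 to 489 CPM at E12.5, so the sums of the stages overlapped. Tbx2, named after its values were seen, was the largest part of these sums. It had 396, 415 and 117 CPM in E10.5 replicates 1, 2 and 3, and means of 423 CPM at E11.5 and 324 CPM at E12.5. The sums therefore mostly follow Tbx2 and not the genes called lower. Crx was at 0 in every E11.5 library and Vax2 in every E12.5 library. Crx had only 6, 1 and 2 counts at E10.5 and was not tested, so nothing is read from its 0. At an unadjusted p under 0.05, 0 were higher in the E10.5 contrasts and 3 lower in the second interval, and DESeq2 called 0 in each. Without E12.5 replicate 1, 1 gene was called lower in the second interval.

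Of 13 neural progenitor genes, 12 were tested in the first interval and 9 were called lower, 0 higher (median −1.52). For the whole span, 8 of 13 were called lower and 0 higher (median −1.13), and in the second interval, 0 of 11 lower and 3 higher (median 0.71). At an unadjusted p under 0.05 these counts of 0 became 0, 1 and 2, and DESeq2 called 0. The count of genes called lower was 5 in the first interval without E11.5 replicate 3, and 5 over the whole span without E10.5 replicate 3. The POU factor Pou3f2 went from 5.61 ± 1.89 CPM to 0.322 ± 0.143 CPM in the first interval (−4.09, SE 0.40, adjusted p = 0.00153). The Notch target Hes5 fell by 3.12 on the log2 scale (SE 0.55, adjusted p = 0.0111) and the Notch ligand Dll1 fell by 2.66 on the log2 scale (SE 0.32, adjusted p = 0.0027). Pou3f1 fell by 2.77 (SE 0.30, adjusted p = 0.00185) and then rose by 1.72 in the second interval (SE 0.29, adjusted p = 0.00401). Leaving out E10.5 replicate 3, the first interval values of Pou3f2, Hes5, Dll1 and Pou3f1 were −3.79, −2.78, −2.58 and −2.71, and all 4 stayed called. The summed level of this list was 634 to 673 CPM at E10.5, 307 to 369 CPM at E11.5 and 311 to 361 CPM at E12.5, and none of its genes was at 0 throughout a stage.

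**Figure D5:**
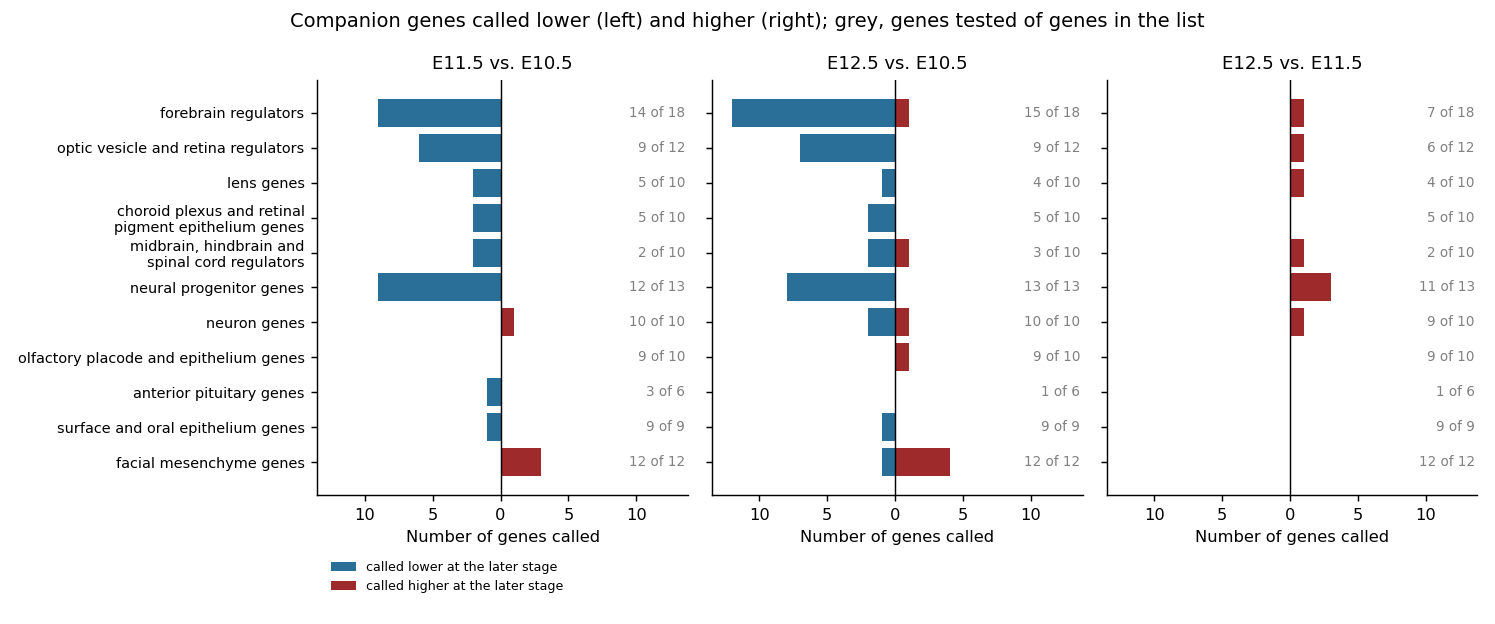
Number of genes called lower (blue, to the left) and higher (red, to the right) at the later stage in each companion list (y axis), in the 3 contrasts. The x axis counts genes, and grey text gives the genes tested of the genes in the list. Forebrain, optic and neural progenitor lists carry 9, 6 and 9 genes called lower in the first interval, and in the second interval no list has a gene called lower.

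In lists for other tissues near the dissected region, fewer genes were called. Over all genes tested, 2.61% were called lower and 3.46% higher in the first interval, and 5.08% and 9.97% over the whole span. Nothing is read from a count of 0 or 1 in lists of this size. Of 10 olfactory placode and epithelium genes, where several members are also expressed, 9 were tested and 0 were called in either direction in the first interval, with 1 lower and 3 higher at an unadjusted p under 0.05 and 0 called by DESeq2. Their summed level was 379 to 441 CPM at E10.5, 507 to 514 CPM at E11.5 and 488 to 524 CPM at E12.5. Across the whole span, 1 olfactory gene was called higher and 0 lower. Of 10 neuron genes, 0 were called lower and 1 higher in the first interval, and 2 lower and 1 higher over the whole span. DESeq2 called 1 lower in the first interval, and 3 were lower there at an unadjusted p under 0.05. The gene called higher was Stmn2, a microtubule regulator of growing axons, which rose from 17.3 ± 5.57 CPM at E10.5 to 37.7 ± 5.62 CPM and 106 ± 23.3 CPM. Its call in the first interval was lost without E10.5 replicate 1 or 2, or E11.5 replicate 1 or 3. Of 9 surface and oral epithelium genes, 1 was called lower and 0 higher in the first interval, and it was Krt18, at −1.03 (SE 0.22, adjusted p = 0.0213) with all libraries and −0.74 without E10.5 replicate 3, where it was no longer called, nor without any single E11.5 library. At an unadjusted p under 0.05, 2 genes of that list were higher, and DESeq2 called 0. The sum of that list was 474 to 867 CPM at E10.5, highest in replicate 3.

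Some facial mesenchyme genes rose. Of 12, 0 were called lower and 3 higher in the first interval, and 1 lower and 4 higher over the whole span. In the first interval 1 was lower at an unadjusted p under 0.05 and 0 by DESeq2. The 3 genes called higher were Pax3, at 1.41 (SE 0.19, adjusted p = 0.00385), the growth factor receptor gene Pdgfra, at 1.27 (SE 0.22, adjusted p = 0.01), and Msx1, at 1.16 (SE 0.19, adjusted p = 0.00808). Without E10.5 replicate 3 they were 1.23, 1.04 and 0.97, and Msx1 was no longer called, and without E11.5 replicate 1 only 1 gene of the list was called higher. The summed mesenchyme level was higher at both later stages, where the means of all members but Emx2 were lower. Its part in the falls of those members was not tested.

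Lens, choroid plexus, posterior neural tube and pituitary lists held few measured genes. Of 10 lens genes, 5 were tested in the first interval and 2 called lower, but 0 without any single E11.5 library. Foxe3, the lens placode factor that the optic vesicle induces, had 36, 12 and 10 counts at E10.5, none at E11.5 and a single count at E12.5, and was at least 22.1-fold higher at E10.5 than at E11.5. The lens sum was 25.4 to 35.6 CPM at E10.5, 15.3 to 17.7 CPM at E11.5 and 28.7 to 34.2 CPM at E12.5. Maf was the largest part of these sums, with stage means of 16.3, 9.79 and 23.2 CPM in order of age. It was called higher in the second interval (1.25, SE 0.17, adjusted p = 0.00101). The sums therefore mostly follow Maf, and their rise at E12.5 is not read as a return of the lens genes as a set. Of 10 midbrain, hindbrain and spinal cord regulators, 2 were tested in the first interval and both were called lower, Pax5 and Olig2 (−2.53, SE 0.23, adjusted p = 0.0013, and −2.35 without E10.5 replicate 3). The sum was 23.2 to 33.0 CPM at E10.5 and 5.18 to 6.21 CPM at E11.5, with 13.9 to 20.6 CPM at E12.5, and En1 was called higher in the second interval (3.79, SE 0.41, adjusted p = 0.000315). Of 6 anterior pituitary genes, 3 were tested and 1, Lhx4, was called lower, with 37 counts at E10.5 and 1 at E11.5, but not without E11.5 replicate 1.

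Of 10 choroid plexus and retinal pigment epithelium genes, 5 were tested and 2 called lower in the first interval. They were Trpm1, a pigment cell gene (−3.06, SE 0.61, adjusted p = 0.0173, and −3.18 without E10.5 replicate 3), and Clic6, which was at −1.296 with all libraries and −0.86 and not called without E10.5 replicate 3. The count was 1 with E10.5 replicate 2 or 3 left out and 0 without any single E11.5 library. Among choroid plexus genes named after their values were seen, some were found in E12.5 replicates 1 and 2 and not in replicate 3. Ttr, the transthyretin gene, had 268, 870 and 0 counts in the 3 E12.5 libraries, Folr1 had 9, 21 and 0, and Kl had 8, 12 and 0. Other genes of the list did not show this, with Clic6 at 10.003, 11.3 and 10.9 CPM and Lmx1a at 3.06, 2.16 and 2.95 CPM in the same order of libraries. E12.5 replicate 3 held no count of Ttr, Folr1 or Kl and the most Rax of that stage (12 counts). Otx2, which is also used by choroid plexus and pigment epithelium, was 15.0, 15.0 and 16.7 CPM in the same libraries.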

How the data were processed

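Total RNA of 9 libraries (3 per stage) was sequenced. The authors aligned reads to GRCm38 (mm10) with HISAT2 2.0.5 and counted reads per gene with featureCounts, and deposited whole-number counts with FPKM values in a single table. The strand setting of the counting was not given in the sources used here. The FPKM values and the authors' own fold changes and p-values (per contrast, with mean normalized counts per stage) were not used.

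Counts were scaled to CPM with TMM factors, filtered with filterByExpr in each contrast and fitted with edgeR 4.0.16 (glmQLFit, glmQLFTest) in R 4.3.3, using the 6 libraries of the contrast, with Benjamini-Hochberg adjustment over all genes tested. A gene was called when its adjusted p did not exceed 0.05 and its log2 fold change reached 1 in either direction. Bounds used a floor of 3 counts over a group, and the 95% intervals are exact; both cover counting error only. The procedure was tested on simulated data. Depth was 16581009 to 20836804 counts per library.

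The members and companion lists were chosen with earlier results of these data known. Every member is named; of each list, at most the 4 called genes with the largest absolute log2 fold change in the first or the second interval are named, and other names are marked. Alternatives were DESeq2 1.42.0, its size factors, no filter, 1 fit of all libraries, a replicate block, removal of the GC trend (values for 99.774% of genes) and leaving out each library.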

Additional observations from a re-analysis of the deposited data

How the results depend on the processing

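No fold change of a member changed direction in any alternative in which it was called. Over 324 alternative values of the members' log2 fold changes, 315 kept their side of the threshold, 5 passed it newly and 4 lost it. The number of members called lower in the second interval (0) became 1 with the GC trend removed (Sox3, −1.24) and ranged from 0 to 1 when 1 library was left out. The number called higher there (1) became 3 with no filter on low counts, where Rax (3.93) and Otp (5.50) joined Emx2. The number of all genes called ranged from 395 (without E11.5 replicate 1) to 1592 (without E10.5 replicate 3) around 954 in the first interval, and from 502 (without E11.5 replicate 2) to 1181 (without E12.5 replicate 2) around 806 in the second interval. Of 36 companion genes called in the first interval, 19 stayed called without E11.5 replicate 1, and 20 stayed called with replicate 3 of that stage left out, and none turned in any alternative. The correlations of same-numbered libraries ran from −0.151 to 0.221, within the range of differently numbered libraries (−0.22 to 0.223). Between E10.5 and E12.5, however, the same-numbered values were all positive (0.179, 0.0701 and 0.221), against −0.22 to 0.153 for the others. These values do not settle whether replicate numbers pair the libraries. With the replicate block, 875, 2474 and 887 genes were called in the first interval, over the whole span and in the second interval, against 954, 2392 and 806 without it, and the members called lower were 8, 6 and 0 in both. At this depth, 0 counts of Otp at E11.5 limit its level but do not show its absence.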
